A study of Canis lupus with 20 samples.

Results

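The left ventricles of uninephrectomized dogs were compared with those of sham-operated dogs 12 weeks after surgery. The comparison takes the 10 ventricular arrays of a series of 20, chosen by their titles, 5 labelled uninephrectomy and 5 labelled sham. It is described across the 42924 probe sets that are not array controls, out of 43035 in all. The uninephrectomy group were normal dogs whose right kidney was removed, and the sham group were normal dogs that had the sham operation. No strain, sex, age or drug is given in the labels used here. Each operation had 6 dogs assigned to it, and 5 ventricular samples of each were hybridised, 1 array per sample. The arrays are Affymetrix canine arrays, on which a gene is read by 1 or more probe sets, and the values are log2 signals. Differences are uninephrectomy minus sham on the log2 scale, given ± standard error with n = 5 arrays per group, so that a positive value means a higher signal after uninephrectomy. Nothing in the labels ties an array number to a dog, and the p-values measure only the spread between these samples.

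Removal of a kidney lowers the filtration capacity and leaves the remaining kidney to take over by growth and hyperfiltration. The heart can meet such a change through blood pressure and volume, through the renin-angiotensin-aldosterone system, and through mineral hormones such as FGF23, all of which are known to act on ventricular muscle. Ventricular cardiomyocytes under load are known for natriuretic peptide release, a switch in sarcomere isoforms, changes in fuel use and matrix deposition by fibroblasts. The gene groups below follow these roles.

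The ventricular label fitted the chamber markers. MYL2, the ventricular regulatory myosin light chain, had means of 14.66 in sham and 14.55 in uninephrectomized ventricles, against 3.81 and 4.72 in the atria of the same series. MYL3, the ventricular essential light chain, stood at 13.94 and 14.03, against 6.03 and 7.15 in the atria. The ventricular homeobox gene IRX5 stood at 6.69 and 6.34, against 0.99 and 0.98. NR2F1, a nuclear receptor of atrial identity, was dim in the ventricle, meaning under log2 3 in both group means, at 2.49 and 2.22, against 9.30 and 9.01 in the atria. Other atrial markers were bright in the ventricle, though lower than in the atria. MYL7 stood at 12.31 and 11.80 (atria 14.33 and 14.24), and PAM at 11.03 and 11.17 (atria 13.71 and 13.62). DKK3 stood at 8.15 and 8.85 (atria 13.20 and 13.30). MYL4 stood at 8.45 ± 2.27 (SD) and 7.35 ± 2.85 (SD), with atrial means of 14.33 and 14.23. The ventricular markers IRX4 and HAND1 were dim in both chambers, with all group means under 2.1, and do not tell the chambers apart on this array. Values of the 10 arrays ranged from 0.43 to 15.02, with medians of 2.34 to 2.39. The number of arrays limits the precision, and the median standard error of a difference was 0.10, which puts the 95% confidence limits about 0.22 away from it.

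RNA quality may have differed between the groups, but no measure of it had an adjusted p under 0.05. It was read as the 3' gap, the log2 distance between the 3' control probe set and the middle or 5' probe set of the same transcript, averaged over ACTB, GAPDH and EEF1A. A larger gap means less signal away from the 3' end. The mean gap was 1.11, 1.25, 1.83, 1.46 and 1.46 in sham arrays 1 to 5 and 1.17, 1.23, 0.94, 1.04 and 1.32 in uninephrectomy arrays 1 to 5. Sham array 3 stood highest, and the groups overlapped. The difference was -0.28 (exact permutation p = 0.0635, two-sided, where 252 splits allow no p below 0.00794). After adjustment over 4 such tests that p was 0.127. The ACTB gap differed by -0.35 (exact permutation p = 0.151) and the EEF1A gap by -0.31 (exact permutation p = 0.127). The GAPDH gap alone was 1.62 ± 0.06 (SD) against 1.81 ± 0.15 (SD), with an exact permutation p of 0.0159 and 0.0635 after adjustment over 4 such tests. Without sham array 3 the difference of the mean gap was -0.18 (exact permutation p = 0.143). Without sham array 1 it was -0.36 (exact permutation p = 0.0238). Where the difference of a named gene was at least 0.2 in size and moved more than 1.5 times with the mean gap as a covariate, that value is given beside it. This covers only the genes chosen by the naming rules given under processing. For other list members, given as examples, no covariate value is shown, so nothing is said of how far they moved. Whether the gap sets any of these differences was not tested.

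No probe set passed the test. Limma called 0 of 30047 tested probe sets (0%) at a Benjamini-Hochberg adjusted p under 0.05, and the lowest adjusted p was 0.660. At an unadjusted p under 0.05, 1014 probe sets (3.37%) were higher and 959 (3.19%) lower after uninephrectomy. Together these were 1973, where 1502 would be expected if no probe set differed. Correlation between probe sets widens the chance spread around that number, and this spread was not measured. These counts were 528 and 598 with the gap as a covariate. Most differences were small: 81.9% of the tested probe sets differed by less than 0.2, 913 by at least 0.5 and 99 by at least 1. The groups did not overlap for 118 probe sets that were higher (0.393%) and 180 that were lower (0.599%). If no probe set differed, chance would separate 1 in 252 of them in each direction. The share that was higher is close to that, and the share that was lower is above it. Counted by gene, with the brightest probe set standing for the gene, 343 of 11448 genes (3.00%) were higher and 339 (2.96%) lower at an unadjusted p under 0.05. Over all genes 47.4% of the differences were positive, with a median of -0.01. With the gap as a covariate 196 of 11448 genes were higher and 181 lower at an unadjusted p under 0.05. Sham ventricles varied more among themselves than uninephrectomized ones: the SD was larger in the sham group for 59.3% of the probe sets, with medians of 0.17 and 0.14.

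**Figure D1:**
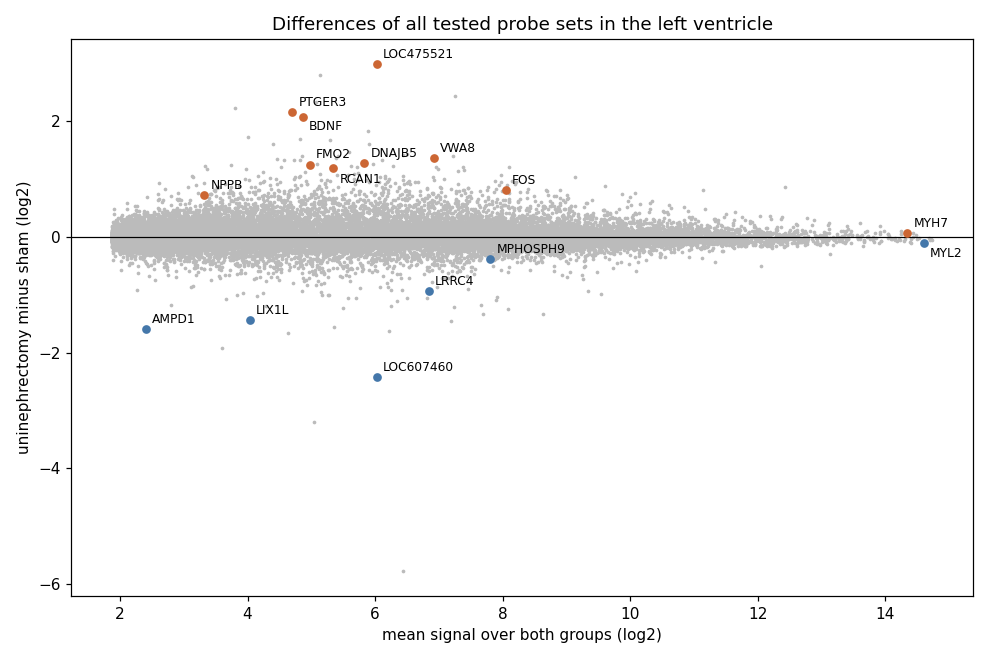
The difference between uninephrectomized and sham ventricles (vertical, log2) against the mean signal over both groups (horizontal, log2) for the 30047 tested probe sets, with 16 genes marked. The bright muscle genes MYL2 and MYH7 sit close to 0 on the right. The widest differences among the marked genes, such as 2.97 for LOC475521 and -2.42 for LOC607460, lie at middle levels. An unmarked probe set without a gene symbol lies further out, at -5.76.

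Of the 30 genes chosen for the smallest p, 15 were higher and 15 lower, and all had an adjusted p of 0.747. Choosing by p fixes that their groups stand apart, so their separation is described and not tested again. VWA8, a mitochondrial protein with an ATPase domain, led the higher genes. Its signal was 6.60, 6.71, 5.73, 5.96 and 6.27 in the sham arrays and 7.48, 7.97, 8.0, 6.85 and 7.73 after uninephrectomy. Every uninephrectomy array lay above every sham array. The difference was 1.35 ± 0.25, or 2.55-fold, with a confidence interval of 0.81 to 1.90. A second, weaker VWA8 probe set differed by 0.73 ± 0.25, and with the gap as a covariate the bright one differed by 1.09 ± 0.28. In bulk tissue a higher signal from more cells of a type cannot be told apart from more RNA per cell, which holds for every gene below.

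DNAJB5, a co-chaperone of heat shock proteins, had 3 tested probe sets that all stood higher. The brightest read 4.93, 5.60, 4.60, 5.03 and 5.83 in sham and 5.81, 7.52, 6.71, 6.54 and 5.78 in uninephrectomized ventricles. Uninephrectomy arrays 1 and 5 lay at the level of the top sham array, and the other three stood above all sham arrays. Its difference was 1.27 ± 0.34, and those of the other probe sets were 1.31 ± 0.36 and 0.85 ± 0.24. SYCE2, known as a synaptonemal complex protein of meiosis, read 5.50 to 6.53 in sham (median 6.05) and 6.56 to 7.50 after uninephrectomy (median 6.70), a difference of 0.90 ± 0.22. Its lowest uninephrectomy array lay just above its highest sham array. ACTR1B, an actin-related protein of the dynactin complex, differed by 1.00 ± 0.26, and by 0.62 ± 0.26 with the gap as a covariate.

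The other higher genes were of varied function. VAPB, which anchors the endoplasmic reticulum to other organelles, read 4.95 to 5.22 in sham and 5.43 to 5.75 after uninephrectomy (0.44 ± 0.08), and its second probe set differed by 0.31 ± 0.10. PACS2, a sorting protein at contacts between endoplasmic reticulum and mitochondria, differed by 0.44 ± 0.10. IL11RA, the receptor of interleukin 11, read 5.16 to 5.30 in sham and 5.39 to 5.69 after uninephrectomy, a narrow but complete separation (0.31 ± 0.07). AKAP13, an anchor of protein kinase A, differed by 0.48 ± 0.13 at its brightest probe set and by -0.09 ± 0.24 and 0.10 ± 0.33 at the others. RFLNB, a binder of filamin, stood at 0.54 ± 0.12, CRIP2, a LIM domain protein of heart and vessels, at 0.38 ± 0.10, and DUSP23, a phosphatase, at 0.62 ± 0.16. CHID1, NSG1, VXN and SH2D1B made up the rest, with differences of 0.55, 0.63, 0.86 and 0.23, and SH2D1B was low in signal, at 2.69 to 3.09 over all arrays. Of the 15 higher genes 10 had groups that did not overlap.

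The lower genes differed by less but with tighter replicates. MPHOSPH9, a protein of centrioles and cilia, read 8.01, 8.01, 8.11, 7.95 and 7.94 in sham and 7.54, 7.54, 7.63, 7.66 and 7.68 in uninephrectomized ventricles. The gap between the groups was wider than the range within either. Its difference was -0.39 ± 0.06, or 1.31-fold, and its other probe sets stood at -0.34 ± 0.13 and -0.09 ± 0.13. TCTN2, a protein of the ciliary transition zone, read 9.35 to 9.62 in sham and 8.88 to 9.29 after uninephrectomy (-0.40 ± 0.09). URB2, which acts in ribosome assembly, read 7.61 to 7.79 in sham and 7.25 to 7.43 after uninephrectomy (-0.34 ± 0.06), while a dim second probe set stood at 0.08 ± 0.13.

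The remaining lower genes were again of varied function. TUT4, which adds uridines to RNA ends, stood at -0.27 ± 0.07, TIA1, a stress granule protein, at -0.32 ± 0.08 and INTS14, of the Integrator complex, at -0.33 ± 0.09. For TIA1 and INTS14 the weaker probe sets went the other way, at 0.26 and 0.54 for TIA1 and 0.22 for INTS14. STRBP, a binder of double-stranded RNA, read 5.34 to 5.76 in sham and 4.52 to 5.32 after uninephrectomy (-0.63 ± 0.16). LRRC4, a leucine-rich repeat protein of synapses, read 6.97, 7.48, 7.34, 7.24 and 7.57 in sham and 6.86, 5.56, 6.60, 6.82 and 6.03 after uninephrectomy. Uninephrectomy arrays 2 and 5 were lowest, the groups did not overlap, and the difference was -0.95 ± 0.24. NIT1, an amidase of the nitrilase family, stood at -0.43 ± 0.09, FBXO9, a substrate adaptor of a ubiquitin ligase, at -0.27 ± 0.06, IMMP2L, a peptidase of the inner mitochondrial membrane, at -0.42 ± 0.09 and NUDCD1 at -0.31 ± 0.08. The unnamed locus LOC475410 stood at -0.38 ± 0.08. PSME2, a subunit of the proteasome activator PA28, read 9.27 to 9.71 in sham and 9.06 to 9.22 after uninephrectomy (-0.33 ± 0.09), and -0.20 ± 0.09 with the gap as a covariate. Of the 15 lower genes 14 had groups that did not overlap, NUDCD1 being the exception.

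**Figure D2:**
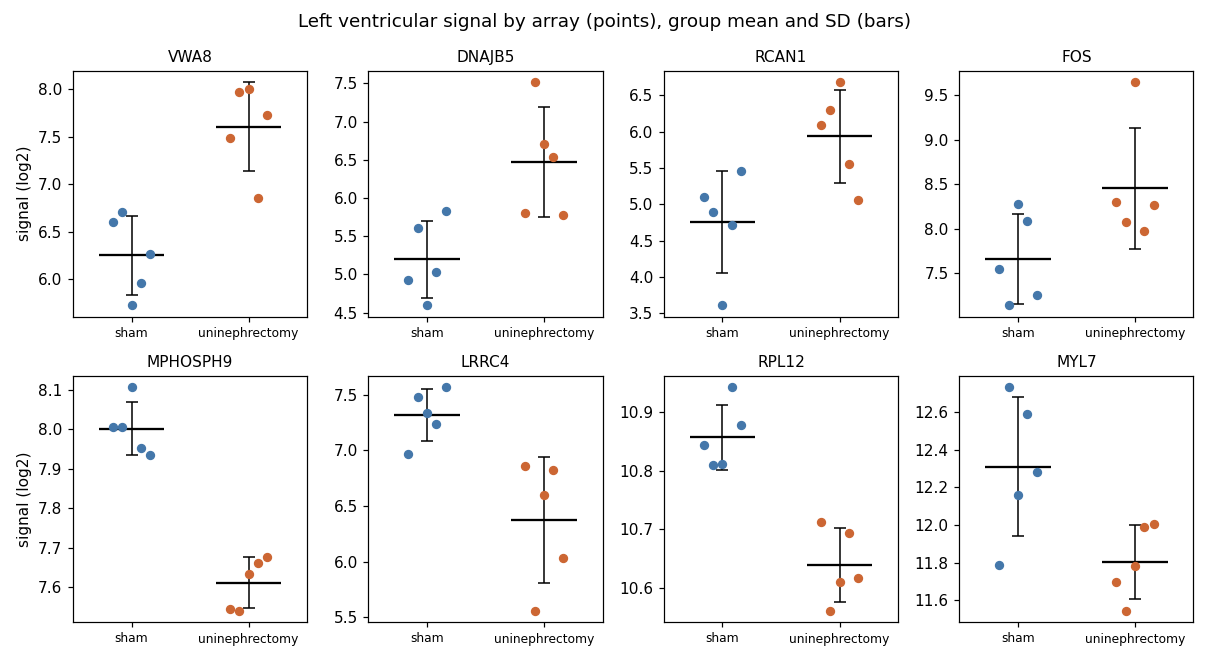
Signal (log2) of 8 genes in each sham and uninephrectomized ventricle (points), with group means and SD (bars). VWA8, MPHOSPH9, LRRC4 and RPL12 have groups that do not overlap, while DNAJB5, RCAN1, FOS and MYL7 overlap.

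The widest mean differences came from genes that vary strongly between individual ventricles. PTGER3, a receptor of prostaglandin E2, read 2.51, 1.74, 4.98, 4.45 and 4.48 in sham and 6.57, 7.07, 4.66, 4.11 and 6.49 after uninephrectomy. In all, 3 uninephrectomy arrays stood above all sham arrays and the other two lay among them. The difference was 2.15 ± 0.75, and 3.57 ± 0.57 with the gap as a covariate. BDNF, a neurotrophin, read 2.47 to 5.02 in sham, and after uninephrectomy 8.49 and 8.02 in arrays 2 and 3 but 4.97, 4.19 and 3.82 in the others (2.07 ± 0.94). FMO2, a flavin-containing monooxygenase, was more even, at 3.65 to 5.13 in sham and 4.80 to 6.76 after uninephrectomy (1.24 ± 0.36), and its second probe set differed by 1.02 ± 0.46. RARRES1, a retinoic acid responsive gene, differed by 1.32 ± 0.74 and by 0.92 ± 0.92 with the gap as a covariate.

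LOC475521 and LOC480788 were bimodal. LOC475521 read 8.60 in sham array 1 and 1.78 to 4.87 in the other sham arrays, against 3.82 in uninephrectomy array 4 and 7.77 to 8.95 in the others (2.97 ± 1.29). Its second probe set differed by 2.78 ± 1.16. LOC480788 read 7.61 in sham array 1, 2.69 to 3.30 in the other sham arrays, and 7.84, 7.36, 4.18, 3.49 and 8.29 after uninephrectomy (2.32 ± 1.19). Its second, dim probe set differed by 0.15. Both states of each gene occurred under both operations.

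On the lower side LOC607460 read 4.74, 7.0, 8.69, 8.28 and 7.49 in sham and 3.51, 5.15, 3.73, 6.98 and 4.74 after uninephrectomy. The groups overlapped through sham array 1 and uninephrectomy array 4. The difference was -2.42 ± 0.81, and -1.37 ± 0.86 with the gap as a covariate. LIX1L read 3.56 to 6.08 in sham and 2.95 to 3.69 after uninephrectomy (-1.44 ± 0.46), with -0.39 ± 0.10 at its weaker probe set. DLA-79, a dog class I histocompatibility gene, stood at -1.55 ± 0.75, LYZF2, a lysozyme, at -1.24 ± 0.58 and SPP1, the matrix protein osteopontin, at -1.10 ± 0.91. DLA-79 stood at -0.58 and LYZF2 at -0.68 with the gap as a covariate. LYZF2 stood at -0.73 without sham array 3, and SPP1 at -0.46 without uninephrectomy array 2 and -1.76 without array 3. RITA1, a regulator of Notch signalling, read 7.49 to 9.67 in sham and 6.04 to 8.94 after uninephrectomy (-1.25 ± 0.56).

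Single arrays made up some of these means. AMPD1, the AMP deaminase of skeletal muscle, read 9.57 in sham array 2 and 1.46 to 1.76 in every other ventricle. Its mean difference of -1.59 ± 1.38 was 0.00084 without that array and -2.62 with the gap as a covariate. FKBP1B, which binds the ryanodine receptor, read 3.24 in uninephrectomy array 1 against 7.28 to 10.36 in the other ventricles, and its difference of -1.34 ± 1.16 was -0.16 without it.

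Among probe sets with no gene symbol, one stood furthest from 0 of all those tested, at -5.76 ± 1.12. Its signal was 10.27, 10.69, 8.51, 8.58 and 8.51 in sham and 8.33, 2.34, 2.39, 2.10 and 2.60 in uninephrectomized ventricles. Uninephrectomy array 1 was near the sham level and the other four were near the bottom of the scale. Without that array the difference was -6.95 and the probe set was the 1 call made (limma adjusted p = 0.00209). Another probe set without a symbol read 9.76 to 9.79 or 3.46 to 3.68 under sham and 9.59 to 9.71 or 3.65 after uninephrectomy, with the high state in sham arrays 1 and 3 and in all uninephrectomy arrays but 4. The probe set with the lowest adjusted p of all (limma, 0.660) also had no symbol. It read 5.68 to 5.93 in sham and 5.17 to 5.40 after uninephrectomy, a difference of -0.51 ± 0.07. Others with a small p stood at -0.38 ± 0.07, 0.90 ± 0.18 and 0.59 ± 0.12, each with a limma adjusted p of 0.747.

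**Figure D3:**
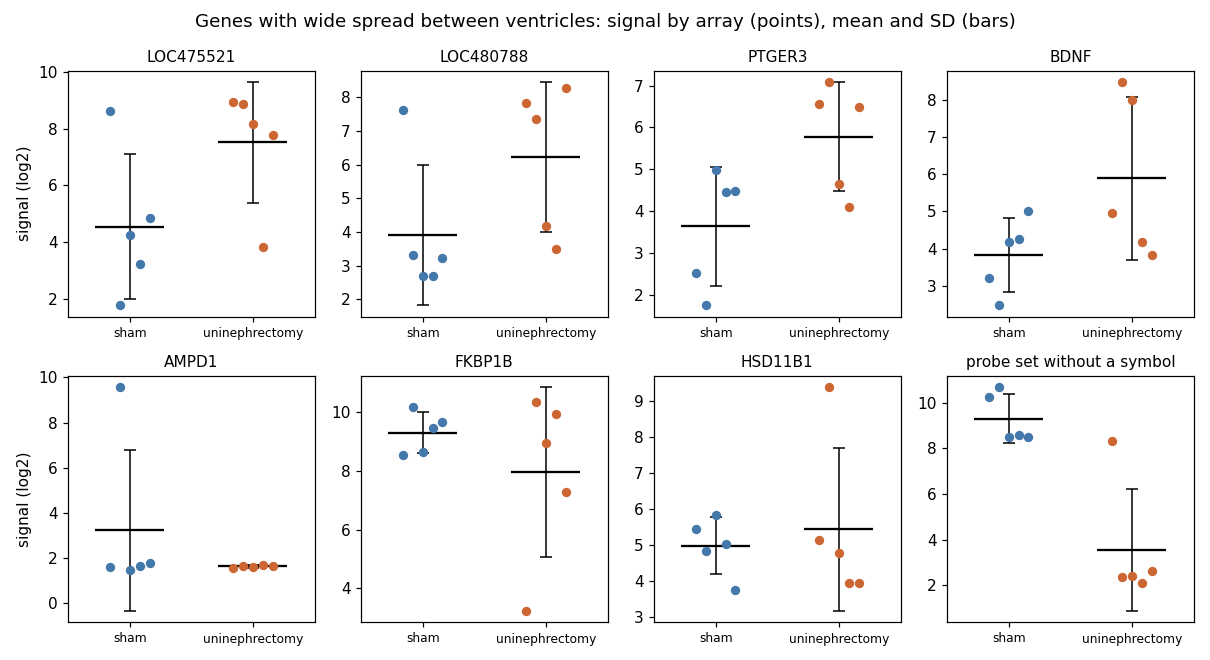
Signal (log2) by array (points) with group means and SD (bars) for 7 genes and 1 probe set without a symbol that vary widely between ventricles. AMPD1 is high in 1 sham array only and FKBP1B low in 1 uninephrectomy array only, and the probe set without a symbol is low in 4 of the 5 uninephrectomized ventricles.

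Immediate early genes, which respond to stimuli within minutes through transcription factors already present, stood higher as a group. Differences were positive for 18 of its 21 measured members, and their median was 0.23 against -0.01 over all genes. At an unadjusted p under 0.05, 5 members were higher and 0 lower, where 3.00% of all genes were higher, and 0 members passed the adjusted test. Averaged over the list the signal was 7.06, 7.16, 6.97, 7.08 and 6.89 in sham and 7.01, 7.48, 7.56, 7.16 and 7.35 after uninephrectomy. Uninephrectomy array 1 lay among the sham arrays and the other four lay above them.

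FOS, a subunit of the AP-1 transcription factor, read 7.54, 7.13, 8.28, 8.08 and 7.26 in sham and 8.30, 8.07, 9.65, 7.97 and 8.27 after uninephrectomy. Array 3 stood far above the other uninephrectomized ventricles, and the groups overlapped. The difference was 0.79 ± 0.33 and 0.49 without uninephrectomy array 3. BTG2, an antiproliferative gene, read 4.28 to 4.81 in sham and 4.67 to 5.60 after uninephrectomy (0.63 ± 0.19). IER3, a stress-induced survival gene, differed by 0.49 ± 0.18, the zinc finger factor KLF6 by 0.22 ± 0.09 and MCL1, a survival protein of the BCL2 family, by 0.19 ± 0.07. EGR1, an early growth response factor, differed by 0.73 ± 0.40 and did not reach an unadjusted p of 0.05. With the gap as a covariate 18 of 21 members were again positive, with a median of 0.17 and 4 members at an unadjusted p under 0.05. In that fit 196 of 11448 genes were higher at such a p.

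Cytosolic ribosomal protein genes stood slightly lower. Differences were negative for 45 of its 51 measured members, and their median was -0.08. At an unadjusted p under 0.05, 5 members were lower and 1 higher, where 2.96% of all genes were lower, and 0 passed the adjusted test. RPL12, of the large subunit, read 10.84, 10.81, 10.81, 10.94 and 10.88 in sham and 10.71, 10.56, 10.61, 10.69 and 10.62 after uninephrectomy. All uninephrectomy arrays lay below all sham arrays, and the difference was -0.22 ± 0.06. RPL7 stood at -0.17 ± 0.06, RPL34 at -0.16 ± 0.06, RPL15 at -0.19 ± 0.08 and RPL24 at -0.16 ± 0.07, while RPS10, of the small subunit, stood at 0.16 ± 0.07. The list mean was 11.42, 11.44, 11.58, 11.53 and 11.48 in sham and 11.45, 11.32, 11.38, 11.50 and 11.44 after uninephrectomy, so the groups overlapped. Sham array 3 had both the highest ribosomal mean and the largest 3' gap. With the gap as a covariate 34 of 51 members were negative and the median was -0.02, with 1 member lower at an unadjusted p under 0.05, while RPL12 stood at -0.23.

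Mitochondrial ribosomal proteins were split, with 28 of 70 positive and a median of -0.04. At an unadjusted p under 0.05, 6 were lower and 2 higher, where 2.96% of all genes were lower and 3.00% higher. The lower members included MRPL33 at -0.17 ± 0.06, MRPS26 at -0.15 ± 0.05 and MRPL19 at -0.28 ± 0.10, and the higher ones MRPS27 at 0.35 ± 0.13. Fitted with the gap, the list median was 0.003, 0 members were higher and 2 lower, and MRPS27 stood at 0.14.

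**Figure D4:**
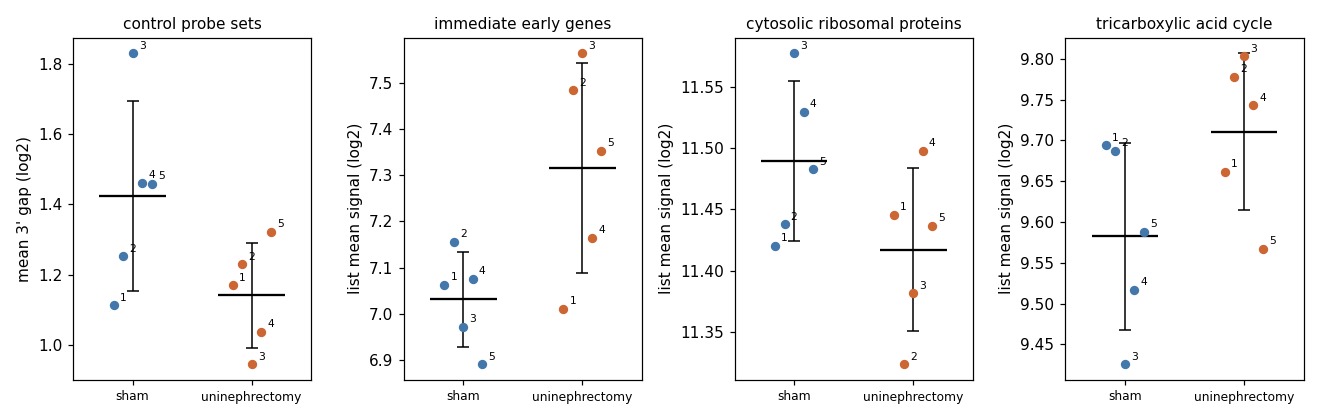
Average 3' gap over ACTB, GAPDH and EEF1A and the mean signal of the immediate early, cytosolic ribosomal and tricarboxylic acid cycle lists in each ventricle (points, numbered by array, all log2), with group means and SD (bars). Sham array 3 has the largest gap, the highest ribosomal mean and the lowest tricarboxylic acid cycle mean.

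Natriuretic and stretch genes did not move together. Of 26 measured members 12 were positive, with a median of -0.01. NPPB, the B-type natriuretic peptide, was low in signal in the ventricle, at 2.87, 2.48, 3.04, 3.02 and 3.43 in sham and 4.06, 3.62, 3.33, 2.72 and 4.68 after uninephrectomy. The signal of 3 uninephrectomy arrays stood above all sham arrays, and arrays 3 and 4 lay within the sham range. The difference was 0.71 ± 0.32 (limma adjusted p = 0.747), 0.46 without uninephrectomy array 5 and 1.09 ± 0.35 with the gap as a covariate. RCAN1, an inhibitor of calcineurin that is itself induced by it, read 5.10, 4.90, 3.61, 4.71 and 5.46 in sham and 6.09, 6.31, 6.68, 5.55 and 5.06 after uninephrectomy. In 4 uninephrectomy arrays the signal exceeded every sham array, and the lowest sham value was that of array 3. Its difference was 1.18 ± 0.37, its second probe set stood at 0.63 ± 0.18, and with the gap as a covariate the first stood at 0.59 ± 0.35. NEXN, a Z-disc protein, had 6 tested probe sets that disagreed, from -0.46 ± 0.23 to 0.94 ± 0.23, with -0.26 ± 0.10 at the brightest.

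Of the sarcomere and Z-disc genes 24 of 35 were positive, with a median of 0.05. At an unadjusted p under 0.05, 3 were higher and 1 lower, where 3.00% of all genes were higher and 2.96% lower. MYBPC3, cardiac myosin binding protein C, read 11.84 to 12.44 in sham and 12.42 to 12.70 after uninephrectomy (0.34 ± 0.12), with the lowest value in sham array 3, and stood at 0.14 with the gap as a covariate. FLNC, the muscle filamin, differed by 0.39 ± 0.17 and MYPN, a Z-disc protein, by 0.34 ± 0.15. Fitted with the gap, 20 of 35 sarcomere genes were positive, the median was 0.01 and 0 members had an unadjusted p under 0.05. MYL7, the atrial regulatory light chain, read 11.79, 12.73, 12.16, 12.59 and 12.28 in sham and 11.70, 11.55, 11.78, 11.99 and 12.01 after uninephrectomy. Sham array 1 lay among the uninephrectomy arrays and the other four above all of them. The difference was -0.51 ± 0.17 (limma adjusted p = 0.747). MYH7, the slow myosin heavy chain, differed by 0.06 ± 0.09 at its brightest probe set, and its 4 weaker ones ranged from -0.25 to 0.85.

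Calcium handling genes were positive in 16 of 29, with a median of 0.04 and RCAN1 the 1 member at an unadjusted p under 0.05. ATP2A2, the calcium pump of the sarcoplasmic reticulum, differed by -0.06 ± 0.08, and its regulator PLN by -0.10 ± 0.07. Fitted with the gap, 14 of 29 calcium handling genes were positive. Ion channel and gap junction genes were positive in 12 of 25, with a median of -0.01 and 0 members at an unadjusted p under 0.05 in either direction. The desmosome gene DSP was the closest, at 0.81 ± 0.39. Adrenergic and cAMP genes were positive in 10 of 22, with a median of -0.02 and likewise 0 members at an unadjusted p under 0.05.

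Genes of the tricarboxylic acid cycle and of ketone and branched-chain amino acid breakdown stood mostly higher, by small amounts. In the cycle 23 of 28 members were positive, with a median of 0.07, and in the ketone and amino acid group 22 of 26, with a median of 0.10. In each of them 1 member was higher at an unadjusted p under 0.05, where 3.00% of all genes were higher, and 0 passed the adjusted test. DLST, a subunit of oxoglutarate dehydrogenase, read 7.96, 8.29, 6.28, 7.22 and 7.72 in sham and 8.08, 8.38, 8.89, 8.81 and 7.73 after uninephrectomy. Sham array 3 was far the lowest. The difference was 0.89 ± 0.36, 0.58 without sham array 3, and 0.12 ± 0.20 with the gap as a covariate. ACAD8, of valine breakdown, read 8.52, 8.30, 7.59, 8.12 and 8.17 in sham and 8.50, 8.72, 8.69, 8.91 and 8.17 after uninephrectomy (0.46 ± 0.18, and 0.10 ± 0.12 with the covariate). BDH1, which interconverts the ketone bodies, differed by 0.10 ± 0.18 at its brightest probe set, and its 4 weaker ones stood at 0.42 to 0.84. With the gap as a covariate 16 of 28 cycle genes and 17 of 26 ketone and amino acid genes were positive, with medians of 0.01 and 0.03.

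Fatty acid oxidation genes were positive in 18 of 41, with a median of -0.03, 3 higher and 1 lower at an unadjusted p under 0.05, where 3.00% of all genes were higher and 2.96% lower. With the gap as a covariate 23 of 41 were positive, the median was 0.01 and 0 members had such a p in either direction. PPARGC1A, the coactivator of mitochondrial genes, read 9.91 to 10.19 in sham and 10.01 to 10.44 after uninephrectomy (0.24 ± 0.09). A weaker PPARGC1A probe set stood at 1.23 ± 0.43, another at -0.09 ± 0.08, and the brightest at 0.14 with the gap as a covariate. Its relative PPARGC1B stood at -0.28 ± 0.11. PPARA, the nuclear receptor of fatty acid use, differed by 0.55 ± 0.22 and CRAT, carnitine acetyltransferase, by 0.65 ± 0.27. Glycolysis genes were positive in 18 of 28, with a median of 0.04 and 3 higher and 0 lower at an unadjusted p under 0.05. Fitted with the gap, 17 of 28 glycolysis genes were positive, with a median of 0.007 and 0 at such a p. SLC2A1, a glucose transporter, read 8.63 to 9.09 in sham and 8.93 to 9.49 after uninephrectomy (0.36 ± 0.12), and both weaker probe sets stood higher too, at 0.83 ± 0.29 and 1.16 ± 0.44. The glycogen phosphorylases PYGB and PYGM differed by 0.34 ± 0.14 and 0.56 ± 0.23.

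Oxidative phosphorylation subunits, bright in the ventricle, differed little. Of 60 members 28 were positive, the median was -0.01, and every difference at a brightest probe set lay between -0.10 and 0.24. Fitted with the gap, 45 of 60 were positive, with a median of 0.03 and 0 members at an unadjusted p under 0.05. Without the covariate UQCRC1, of complex III, was the 1 member at an unadjusted p under 0.05, at 0.20 ± 0.09. It stood at 0.09 with the gap as a covariate, and its second probe set differed by 0.35 ± 0.12. In the list for mitochondrial biogenesis and quality control 25 of 43 were positive, with a median of 0.02. Beside VWA8, CLPP, a protease of the mitochondrial matrix, stood at 0.19 ± 0.08, and HSPE1, the co-chaperonin of the matrix, at -0.16 ± 0.06 with groups that did not overlap.

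Matrix genes showed no common direction. Of 50 measured members 25 were positive, with a median of 0.005, 4 higher and 1 lower at an unadjusted p under 0.05, where 3.00% of all genes were higher and 2.96% lower. Fitted with the gap, 24 of 50 were positive, 2 higher and 1 lower at such a p. COL1A1, the main fibrillar collagen chain, read 9.24 to 9.69 in sham (median 9.52) and 8.63 to 9.63 after uninephrectomy (median 9.44), a difference of -0.17 ± 0.18. It was -0.011 without uninephrectomy array 2, the lowest. COL3A1 differed by 0.07 ± 0.16. SERPINH1, the collagen chaperone, read 6.47, 6.32, 5.90, 6.15 and 6.85 in sham and 6.67, 6.89, 7.60, 6.95 and 6.71 after uninephrectomy. One sham array, the fifth, lay among the uninephrectomy arrays and the other four below them, with a difference of 0.63 ± 0.21, or 0.34 ± 0.21 with the gap as a covariate. COL4A2, a basement membrane collagen, differed by 0.35 ± 0.14, TIMP3, an inhibitor of matrix proteases, by 0.43 ± 0.18 and CCN2, connective tissue growth factor, by 0.77 ± 0.33. LAMB2, a laminin chain, stood at -0.41 ± 0.18, at -0.27 without sham array 3 and at -0.21 with the covariate. TGF-beta signalling genes were positive in 12 of 26, with a median of -0.01. TGFB1 differed by -0.01 ± 0.12, and BMP2, a bone morphogenetic protein, stood at -0.43 ± 0.15 as the 1 member at an unadjusted p under 0.05. Fitted with the gap, 16 of 26 TGF-beta genes were positive.

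Genes of the renin-angiotensin-aldosterone and glucocorticoid systems were positive in 11 of 21, with a median of 0.03 and 0 members at an unadjusted p under 0.05. AGTR1, the main angiotensin receptor, was dim at 1.79 to 2.03 in sham and 1.71 to 2.27 after uninephrectomy (0.12 ± 0.10). The glucocorticoid receptor NR3C1 differed by -0.14 ± 0.13 at its brightest probe set, or -0.051 without uninephrectomy array 4, and by -0.60 ± 0.22 and -0.28 ± 0.21 at the others. HSD11B1, which regenerates active glucocorticoid, read 3.77 to 5.86 in sham and 5.14, 9.39, 4.79, 3.97 and 3.96 after uninephrectomy. The difference of 0.46 ± 0.93 was -0.52 without uninephrectomy array 2 and 0.86 with the gap as a covariate. HSD11B2, which inactivates glucocorticoid, differed by -0.03 ± 0.07. EDN1, the vasoconstrictor endothelin 1, read 4.33, 4.64, 5.94, 5.30 and 4.91 in sham and 4.76, 4.65, 4.67, 4.14 and 4.67 after uninephrectomy. Sham array 3 was the highest, the groups overlapped, and the difference of -0.44 ± 0.26 was -0.22 without sham array 3 and 0.08 with the gap as a covariate. In the phosphate, FGF23 and vitamin D list 10 of 21 were positive, with a median of -0.03, and the dim gene ANKH, a pyrophosphate transporter, stood at -0.14 ± 0.06. FGFR4, a receptor of FGF23 in cardiac muscle, was dim at 2.17 to 2.53 and differed by 0.03 ± 0.07.

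Without the gap as a covariate, immune genes did not separate the operations. Inflammatory cytokine and adhesion genes were positive in 15 of 36, with a median of -0.05, and complement genes in 10 of 23, with a median below 0.01 in size. CD59, which shields cells from complement, differed by 0.37 ± 0.14, and IL6ST, the shared receptor of the interleukin 6 family, was dim and stood at -0.25 ± 0.10. Interferon response genes were positive in 25 of 32, with a median of 0.12 and 0 members at an unadjusted p under 0.05. Their list mean was 6.00, 6.41, 7.29, 6.55 and 6.36 in sham and 7.24, 6.96, 6.32, 6.22 and 6.33 after uninephrectomy. It was high in 1 sham ventricle, the third, and in uninephrectomy arrays 1 and 2. With the gap as a covariate 27 of 32 were positive, with a median of 0.52. In that fit 8 members were higher and 0 lower at an unadjusted p under 0.05, where 196 of 11448 genes were higher. Sham array 3, where the list mean was highest, also had the largest 3' gap, and its part in these covariate values was not tested. Without the covariate, leaving out single arrays moved the median between -0.05 and 0.26.

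In the growth signalling list, which holds the insulin, IGF and mTOR pathways, 22 of 29 members were positive, with a median of 0.06, and 16 of 29 with the gap as a covariate. TSC2, the brake on mTOR, read 5.68 to 6.23 in sham and 6.03 to 6.66 after uninephrectomy (0.49 ± 0.14), with 0.43 ± 0.15 at its second probe set and 0.28 ± 0.14 at the first with the gap as a covariate. Heat shock and unfolded protein genes were positive in 20 of 33, with HSPA2, a heat shock protein 70, at 0.40 ± 0.12. Fitted with the gap, 11 of 33 heat shock genes were positive. Oxidative stress genes were positive in 18 of 31, with 2 higher at an unadjusted p under 0.05, where 3.00% of all genes were higher. The 2 were TXN2, the mitochondrial thioredoxin, at 0.33 ± 0.11 and the quinone reductase NQO1 at 0.45 ± 0.15. TXN2 stood at 0.13 with the covariate. Proteasome genes were positive in 14 of 35, with PSMD8 at 0.15 ± 0.07 opposite to PSME2. Fitted with the gap, 23 of 35 proteasome genes were positive.

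Autophagy and lysosome genes were positive in 19 of 35, with 4 higher and 2 lower at an unadjusted p under 0.05, where 3.00% of all genes were higher and 2.96% lower. Fitted with the gap, 1 was higher and 2 lower. CTSB, the protease cathepsin B, read 10.57 to 10.76 in sham and 10.78 to 10.96 after uninephrectomy, groups that did not overlap (0.21 ± 0.07). Its weaker probe set differed by 1.43 ± 0.42. SQSTM1, the autophagy receptor p62, was dim and stood at -0.25 ± 0.09, and BECN1, which starts autophagosome formation, stood at -0.30 ± 0.12. Apoptosis genes were positive in 15 of 29, and BIRC3, an inhibitor of apoptosis, stood at -0.16 ± 0.06 at its bright probe set while its weaker ones stood at 0.12 to 0.59. Hypoxia and angiogenesis genes were positive in 20 of 34. Of these EPAS1, a hypoxia-inducible factor, read 6.89, 6.69, 4.83, 5.88 and 6.09 in sham and 7.0, 7.24, 6.68, 7.15 and 6.32 after uninephrectomy. Sham array 3 was far the lowest, and the difference of 0.80 ± 0.35 was 0.49 without that array and 0.12 ± 0.25 with the gap as a covariate. Cell cycle genes were positive in 17 of 30 and splicing genes in 25 of 56, with medians of 0.004 and -0.01. CDKN1B, an inhibitor of the cell cycle, was dim and stood at -0.21 ± 0.09. The splicing genes SF3B2 and SNRPB2 stood at 0.25 ± 0.11 and -0.22 ± 0.09, and SNRPB2 at -0.14 with the gap as a covariate.

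Markers of the cell types a ventricular sample can hold differed little. Cardiomyocyte markers were positive in 12 of 16, with a median of 0.05 and a mean log2 signal over the list, taken per array, of 13.11 to 13.33 in sham and 13.14 to 13.34 after uninephrectomy. Fibroblast markers were positive in 9 of 14 (8.22 to 8.70 and 8.24 to 8.69), endothelial markers in 12 of 16 (6.09 to 6.29 and 5.96 to 6.33) and smooth muscle and pericyte markers in 8 of 13 (7.43 to 7.80 and 7.54 to 7.63). Macrophage markers were positive in 6 of 16 (4.14 to 4.49 and 4.06 to 4.63). With the gap as a covariate fibroblast markers were positive in 6 of 14 and smooth muscle and pericyte markers in 5 of 13. Endothelial markers were then positive in 10 of 16 and macrophage markers in 8 of 16. Lymphocyte markers stayed near the bottom of the scale (2.31 to 2.82 and 2.27 to 2.65), and 6 of the 7 measured, PTPRC, CD4 and CD8A among them, were dim. The seventh, CD2 of T cells, had means of 4.27 in sham and 3.64 after uninephrectomy (-0.63 ± 0.62). Neutrophil and blood markers were positive in 3 of 7 (4.58 to 5.13 and 4.57 to 5.16), or in 4 of 7 with the gap as a covariate. CSF3R, the receptor of granulocyte colony-stimulating factor, was dim at -0.23 ± 0.10, or -0.15 with the gap as a covariate. Adipocyte markers were positive in 4 of 11 (5.06 to 5.22 and 4.95 to 5.26). ADIPOQ, the hormone of fat cells, was dim at 2.11 to 2.40 in sham and 1.81 to 2.11 after uninephrectomy (-0.25 ± 0.08), as was CIDEA, a fat droplet protein (-0.22 ± 0.09). Both measured mesothelial markers were dim, as were 6 of the 7 neural ones. The exception was NCAM1, a neural cell adhesion molecule, with means of 6.22 in sham and 6.47 after uninephrectomy (0.25 ± 0.21). Atrial cardiomyocyte markers were positive in 4 of 11, with a median of -0.09 (0.005 with the gap as a covariate), and NR2F1 stood at -0.27 ± 0.10. The ranges of each list overlapped between the operations, and the part of cell makeup in single genes was not tested.

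**Figure D5:**
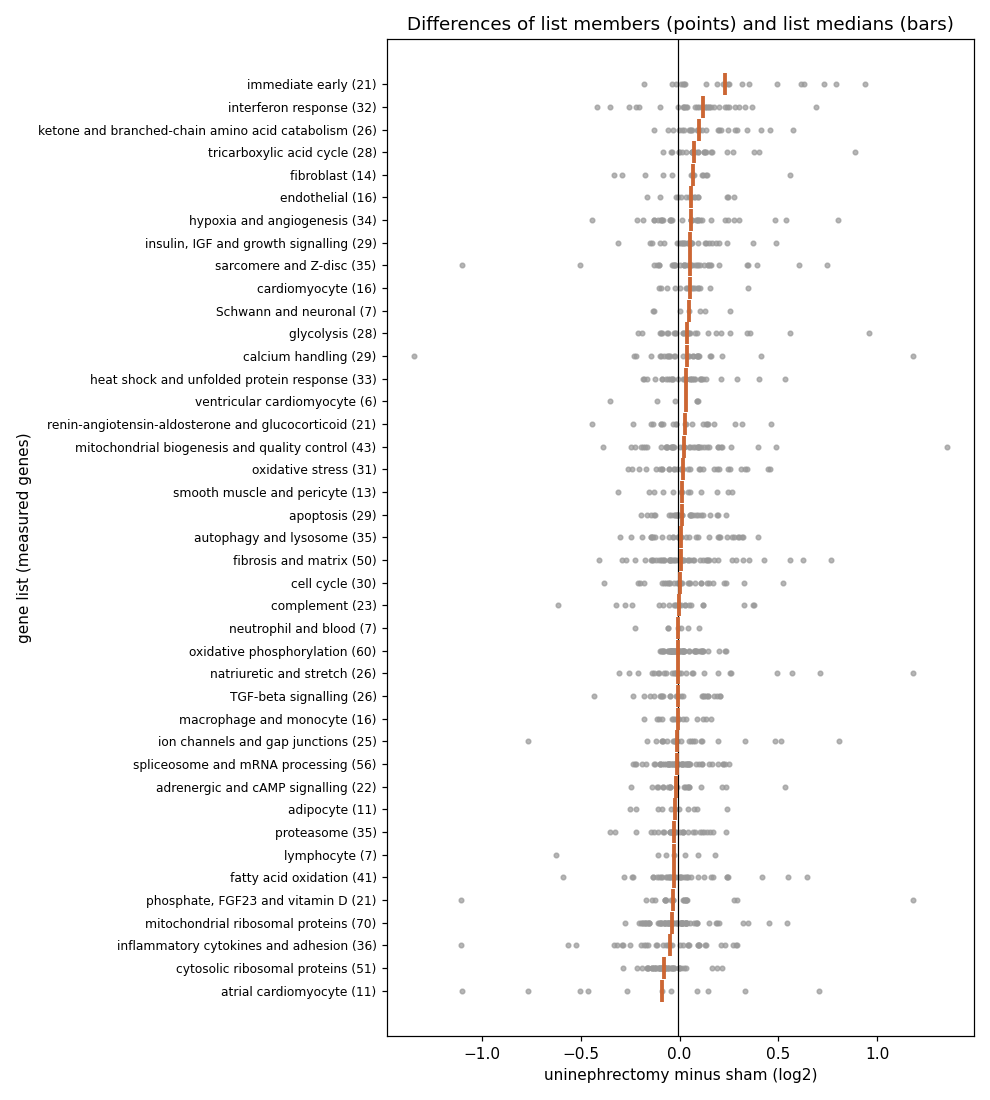
The difference (horizontal, log2) of each measured member (points) and the median (bars) of the gene lists with at least 5 measured genes, sorted by median, with the median over all genes as a vertical line. The immediate early list has the highest median, 0.23, and the atrial cardiomyocyte (-0.09) and cytosolic ribosomal (-0.08) lists the lowest.

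The difference between the ventricular and the atrial effect of the operation was tested for the same genes. Many of these genes were chosen for their ventricular differences, and that choice alone favours a smaller atrial effect. A contrast between the chambers in such a gene is therefore described and does not show a response particular to the ventricle. In limma's test of that difference 0 of 30047 probe sets passed. An unadjusted p under 0.05 was found for 892, where 1502 would be expected if no probe set differed. Again 0 passed, and 989 had such a p, when arrays of the same number were blocked within each operation. Both counts lie below the expected number. VWA8 was near log2 4 in the atria, at 3.83 after uninephrectomy and 3.89 in sham, so that the effects were -0.06 there and 1.35 in the ventricle (difference 1.41 ± 0.33, limma adjusted p = 1.00). For FMO2 they were -0.45 and 1.24, for FBXO9 0.05 and -0.27, for PTGER3, dim in the atria, -0.06 and 2.15 and for LRRC4 -0.13 and -0.95. On the other hand URB2 stood at -0.26 in the atrium and -0.34 in the ventricle, MPHOSPH9 at -0.22 and -0.39, RCAN1 at 0.72 and 1.18 and FOS at 0.51 and 0.79. None of these differences between the chambers passed the adjusted test. Sham arrays of the same number deviated together across the chambers, so a value shared by both chambers is not independent.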

How the data were processed

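RNA from 10 left ventricular samples was extracted with Trizol and 100 ng was labelled with the IVT Express kit, per the labels' protocols. The deposited values are log2 signals and were analysed as they stand. The authors' summarization and normalization steps are not given in the sources used here. Near the bottom of the scale signals bunch together, so differences of dim genes are compressed.

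From the 42924 non-control probe sets the 30% with the lowest mean over the 10 arrays (under log2 1.88) were left out, which removed 12877 and left 30047. Of these 44.1% lay under log2 3 in both group means and are called dim. Symbols came from GEO's platform annotation, which pairs 29264 probe sets with 1 symbol, 439 with several and 13332 with none. A gene was represented by its brightest probe set, and no coordinates or sequences are given.

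Differences were fitted with limma 3.58.1 (lmFit, eBayes, two-sided) in R 4.3.3 on the ventricular arrays alone, with 8 residual degrees of freedom, and adjusted by Benjamini-Hochberg over all tested probe sets. The method was checked on simulated data. The 15 genes with the smallest p and the 8 with the largest difference in each direction are named, each at log2 3 or more in the higher group. To these were added the member of each gene list with the smallest p in each direction if under 0.05, and 18 genes always given. Other list members are given as examples and were chosen after their values were seen. There were 30 pathway and 12 cell type lists, with 1080 of 1363 genes measured. Lists are described by counts and medians, with no test. The members, lists and rules were chosen with earlier results of these data known.

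Array numbers are shared by the groups. Deviations from the group mean correlated at 0.09, 0.14, -0.11, -0.04 and -0.11 between sham and uninephrectomy ventricles of the same number, so the numbers were not taken to pair them. Between the chambers they correlated at 0.21 to 0.47 in sham and -0.24 to 0.12 in uninephrectomized dogs. Figures were drawn with matplotlib 3.10.9.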

Additional observations from a re-analysis of the deposited data

Results flagged for a closer look

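In 12 of 190 groups of 5 ventricles checked, 1 array stood far from the other four (a gap to its nearest neighbour of more than 0.71 of the group's range). Chance alone flags about 1 in 20 such groups. Among the widely varying genes these were sham array 2 for AMPD1 at 9.57, sham array 1 for LOC480788 at 7.61, uninephrectomy array 4 for LOC475521 at 3.82 and uninephrectomy array 2 for HSD11B1 at 9.39. FOS stood at 9.65 in uninephrectomy array 3. Uninephrectomy array 4 stood apart for EDN1 at 4.14, NR3C1 at 5.63 and DUSP23 at 6.11. The remaining cases were CHID1 at 4.75 in uninephrectomy array 1, PACS2 at 4.66 in uninephrectomy array 5, NSG1 at 6.14 in sham array 1 and NUDCD1 at 6.97 in sham array 2. For CHID1, PACS2, NSG1 and NUDCD1 the lone array lay toward the other operation's group. Why single ventricles stood apart was not tested.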

How the results depend on the processing

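The ventricular call count stayed at 0 with all 20 arrays in the fit, no filter, a mean of at least log2 3, equal medians, quantile normalization, array weights, the 3' gap as a covariate, an intensity trend and the replicate block, and ranged from 0 to 1 with arrays left out. Counts at an unadjusted p under 0.05 were 617 higher and 528 lower with the log2 3 filter, which tests fewer probe sets, and 528 higher and 598 lower with the gap as a covariate. They ranged from 710 to 1497 higher and 686 to 1173 lower with arrays left out, 710 and 726 of them without sham array 3 and 735 and 723 without sham array 4. With array number as a block they were 844 and 842. The numbers do not pair these groups, and the block changed no call. The difference of the mean gap between the groups ranged from -0.36 to -0.18 with arrays left out, and that of the GAPDH gap alone was -0.19. Of the named genes' values under all settings 1835 kept their sign and side of the threshold and 39 changed sign. With the gap as a covariate MYL2 stood at 0.066, TGFB1 at 0.051, ATP2A2 at 0.022, HSD11B2 at 0.044 and EDN1 at 0.081. Leaving out arrays gave -2.03 to 0.00084 for AMPD1, -0.023 to 0.18 for COL3A1, -0.078 to 0.049 for TGFB1, -0.52 to 0.83 for HSD11B1 and -0.0098 to 0.060 for FGFR4. Other probe sets had the opposite sign for AKAP13 (-0.094), URB2 (0.083), NIT1 (0.028), STRBP (0.018), TUT4 (0.012), TIA1 (0.26 and 0.54), INTS14 (0.22), LOC607460 (0.029), NEXN (0.94), LAMB2 (0.088 and 0.047), MYBPC3 (-0.077), PPARGC1A (-0.092), PSMD8 (-0.0042), BIRC3 (0.12, 0.59 and 0.22), SQSTM1 (0.068), COL3A1 (-0.085), MYH7 (-0.25, -0.047 and -0.23) and AGTR1 (-0.032). The cause of these sign changes was not tested. Of the list medians 829 moved by less than the spread between arrays and 10 by more. A move within that spread could still change the sign. The natriuretic and ion channel medians changed sign in 8 settings each, and the ventricular cardiomyocyte, macrophage and neutrophil medians in 7 each. The immediate early, cytosolic ribosomal, tricarboxylic acid cycle and ketone medians, among others, did so in 0. With the gap as a covariate the fibroblast median went from 0.07 to -0.06. Dim probe sets carry little signal over background, which limits what can be said of them.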

Other observations

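Weaker probe sets of several genes differed more than the brightest one, and those of others differed less. CTSB differed by 1.43 at the weaker and 0.21 at the brightest probe set, PPARGC1A by 1.23 and 0.24 and SLC2A1 by 1.16 and 0.36. MCL1 differed by 0.81 and 0.19, CD59 by 0.72 and 0.37 and MYH7 by 0.85 and 0.06. Other weaker MYH7 probe sets stood at -0.25, -0.23 and -0.05. Conversely, VWA8 differed by 0.73 at the weaker and 1.35 at the brightest probe set, RCAN1 by 0.63 and 1.18, DLST by 0.17 and 0.89 and EPAS1 by 0.03 and 0.80. Taking the mean over all probe sets of a gene gave list medians of 0.20 against 0.10 for ketone and branched-chain amino acid breakdown, 0.14 against 0.07 for the tricarboxylic acid cycle and 0.10 against 0.04 for glycolysis. The mean 3' gap was smaller after uninephrectomy in the same arrays, and its part in these values was not tested.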
